A study of Mus musculus with 12 samples.

Results

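Interferon-stimulated antiviral effector genes encode the proteins that block viral entry, translation, replication and release after a cell has sensed interferon. The set described here holds 53 genes chosen by name, leaving out the sensors, the interferon regulatory factors, the STAT factors and the large guanylate-binding GTPase families. All 53 were found in a table of 55487 genes, and all 53 were among the 15801 that passed the filter on low counts. The cells were macrophages grown from mouse bone marrow with macrophage colony-stimulating factor, and their RNA was sequenced after poly-A enrichment. The wild-type group carried the intact Fes gene (Fes+/+), and the other genotype carried the Fes-/- allele pair. FES is a cytoplasmic tyrosine kinase of myeloid cells. Cells received either PBS, which the treatment text calls untreated, or lipopolysaccharide (LPS, a component of the outer membrane of Gram-negative bacteria) at 1 µg/mL, for 4 hours. The 4 groups held 3 libraries each, numbered in the labels as biological replicates, and all 12 shared 1 batch date. The labels used here give no age, sex or strain of the mice and no design of the Fes allele. The series text gives n = 3 for the mice of each genotype, and does not say whether PBS and LPS libraries of the same number came from 1 mouse.

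In macrophages, LPS is sensed by TLR4, and the arm of TLR4 signalling that runs through the adaptor TRIF and the kinase TBK1 activates IRF3, which switches on Ifnb1. Interferon beta then acts on the same and neighbouring cells through the receptor IFNAR and the kinases JAK1 and TYK2, and a complex that includes STAT2 and IRF9 binds the interferon-stimulated response element (ISRE) in the promoters of effector genes. Some effectors also respond to IRF3 directly, and many keep a low basal level that depends on traces of interferon made at rest.

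The libraries held 61016254 to 101027166 counts. Fes itself stood at 169, 189 and 179 CPM (TMM-scaled counts relative to library size, replicates 1, 2 and 3 in that order here and below) in wild type under PBS, and at 68.9, 66.4 and 70.5 CPM in Fes-/-. Under LPS it stood at 152, 163 and 171 and 35.1, 33.5 and 32.9 CPM, so transcripts assigned to Fes were lower but not absent in every Fes-/- library. All 8 macrophage markers examined had a mean of at least 1 TPM (a level scaled by gene length and library size) in each group. Of 6 markers of plasmacytoid dendritic cells, the specialised interferon producers, 3 averaged at least 1 TPM in each PBS group (Tcf4, Runx2 and Cox6a2) and 2 in each LPS group (Tcf4 and Cox6a2). Their sum was 22.89 to 31.12 TPM in PBS and 34.45 to 37.86 TPM in LPS libraries, most of it Tcf4, while Siglech averaged at most 0.271, Spib at most 0.265 and Ccr9 at most 0.93 TPM in any group. The summed levels of T and NK, B and stromal markers reached at most 0.603 TPM in any library, the NK marker Ncr1 was at 0 in all 12, and the conventional dendritic sum reached 3.68 TPM. The summed neutrophil markers, nearly all S100a8 and S100a9, were 28.96 to 40.22 TPM in wild-type and 20 to 27.8 TPM in Fes-/- libraries under PBS.

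Promoter sequences from RefSeq, on the build GRCm38.p6, were matched to 44 of the 53 genes by symbol, and Ifi27l2a, Mx1, Mx2, Oas2, Parp14, Parp9, Rtp4, Tor3a and Usp18 had no entry. The element searched was TTTC, any 2 bases and TTTC again, which reads GAAA, any 2 bases and GAAA on the opposite strand, in the 250 bases before and 50 bases after the annotated start. It was present for 22 of the 44 genes (50.0%), against 1079 of 27025 genes in the table (3.99%). In the 250 bases before the start alone the shares were 40.9% and 3.46%. The 22 genes held 36 distinct matches, of which 29 began within 200 bases before the start, and 13 genes held at least 2. The following windows are shown because they carry that element in 4 of the effector classes described below, each being the 250 bases before the start, 5′ to 3′ on the strand of the gene, with every match in capitals. They lie at chr4:156200819-156201068 on the minus strand, chr19:34583279-34583528 on the plus strand, chr5:120907526-120907775 on the minus strand and chr12:26456453-26456702 on the minus strand.
Isg15: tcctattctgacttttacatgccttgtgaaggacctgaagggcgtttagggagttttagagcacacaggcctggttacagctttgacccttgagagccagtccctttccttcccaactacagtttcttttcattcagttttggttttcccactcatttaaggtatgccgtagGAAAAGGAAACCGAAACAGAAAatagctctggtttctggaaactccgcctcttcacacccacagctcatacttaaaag
Ifit3: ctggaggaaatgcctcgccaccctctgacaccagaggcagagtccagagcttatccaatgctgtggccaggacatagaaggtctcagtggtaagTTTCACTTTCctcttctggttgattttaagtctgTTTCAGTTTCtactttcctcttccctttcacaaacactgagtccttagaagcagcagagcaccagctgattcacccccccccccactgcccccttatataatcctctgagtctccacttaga
Oas1a: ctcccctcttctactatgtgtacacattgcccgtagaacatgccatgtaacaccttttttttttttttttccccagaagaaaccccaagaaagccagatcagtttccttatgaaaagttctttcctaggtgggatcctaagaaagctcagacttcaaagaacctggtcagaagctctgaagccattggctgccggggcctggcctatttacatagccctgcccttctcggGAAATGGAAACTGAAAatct
Rsad2: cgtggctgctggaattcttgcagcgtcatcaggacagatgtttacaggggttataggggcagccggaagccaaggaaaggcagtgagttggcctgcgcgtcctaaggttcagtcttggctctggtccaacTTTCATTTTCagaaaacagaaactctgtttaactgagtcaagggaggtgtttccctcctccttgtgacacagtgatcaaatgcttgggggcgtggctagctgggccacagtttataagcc
In Isg15, 3 matches ran into each other as GAAAAGGAAACCGAAACAGAAA, and in Oas1a 2 did so as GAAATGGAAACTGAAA. Ifit3 and Rsad2 carried the element in the TTTC form on the strand of the gene, the opposite orientation to that in Isg15 and Oas1a.

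Shorter sites, 8 bases on each side of the element, show how closely duplicated genes share it. Ifit3 (chr19:34583365-34583390, plus strand) and its neighbour Ifit3b (chr19:34607761-34607786, plus strand) had the same 26 bases, and so did Oas1a (chr5:120907522-120907547, minus strand) and Oas1g (chr5:120887608-120887633, minus strand). Ifi203 (chr1:173942510-173942535, minus strand) and Mndal (chr1:173880206-173880231, minus strand) were alike in the same way. In Trim21 (chr7:102565452-102565477, minus strand) and Eif2ak2 (chr17:78882537-78882562, minus strand) the element began 13 and 18 bases after the start.
Ifit3: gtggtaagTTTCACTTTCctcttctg
Ifit3b: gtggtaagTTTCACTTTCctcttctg
Ifit1: ggcttcagTTTCACTTTCcagtctca
Oas1a: gggaaatgGAAACTGAAAatctactt
Oas1g: gggaaatgGAAACTGAAAatctactt
Ifi203: gagctgggGAAATCGAAAgctatgaa
Mndal: gagctgggGAAATCGAAAgctatgaa
Trim21: tctgagagGAAACTGAAAgtgaaatt
Eif2ak2: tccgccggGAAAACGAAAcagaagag
The Ifit1 site lies at chr19:34640777-34640802 on the plus strand. The kappa B form, GGGA, any 2 bases and TTCC on either strand, was searched in the same windows. It was present for 4 of the 44 genes (9.09%) and 1.63% of all. Another searched form, TTC, any 3 bases and GAA, was present for 8 of the 44 (18.2%) and 9.55% of all. Genes with the ISRE had a median LPS log2 change in wild type of 3.97 (1.47 to 9.43), and the 22 without it had 3.15 (1.14 to 8.21), so the ranges overlapped widely. Cmpk2, Ifit2 and Oasl1, which are among the most strongly raised genes, had no match to the ISRE letters in this window.

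The first comparison asked how the effectors responded to LPS. In wild-type macrophages all 53 rose and none fell (edgeR, adjusted p under 0.05), where 34.6% of all tested genes rose and 38.8% fell. The median change of the 53 was 3.59 on the log2 scale, or 12.1-fold, with a range of 1.47-fold (Ifi27l2a) to 689-fold (Ifit1bl1), and the median of all tested genes was -0.07. In Fes-/- macrophages 52 rose, where 34.3% of tested genes rose and 38.9% fell, and the median was 3.48, or 11.1-fold. At least an 8-fold rise was fitted for 35 effectors in wild type and 34 in Fes-/-, against 7.56% and 7.42% of all tested genes. In 52 of the 53 the 3 LPS libraries lay above all 3 PBS libraries of the genotype, in wild type (35.4% of all genes) and in Fes-/- (36.3%), and in 0 they lay below (39.8% and 41% of all genes). Together the 53 genes took 0.551 to 0.918% of all counts in the PBS libraries and 7.06 to 7.48% in the LPS libraries.

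These counts rest on TMM factors, which were 1.35 to 1.40 in PBS and 0.707 to 0.737 in LPS libraries. Scaled by library totals alone, the median of all genes moved to -0.98 in wild type and -1.01 in Fes-/-, and the share of calls that were rises went from 47.1% to 19.24% in wild type and from 46.86% to 18.49% in Fes-/-. The effectors' medians were then 2.68 and 2.54, and 51 of 53 were still called higher in each genotype, the others being Ifi27l2a, whose direction turned, and Lgals3bp.

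**Figure D1:**
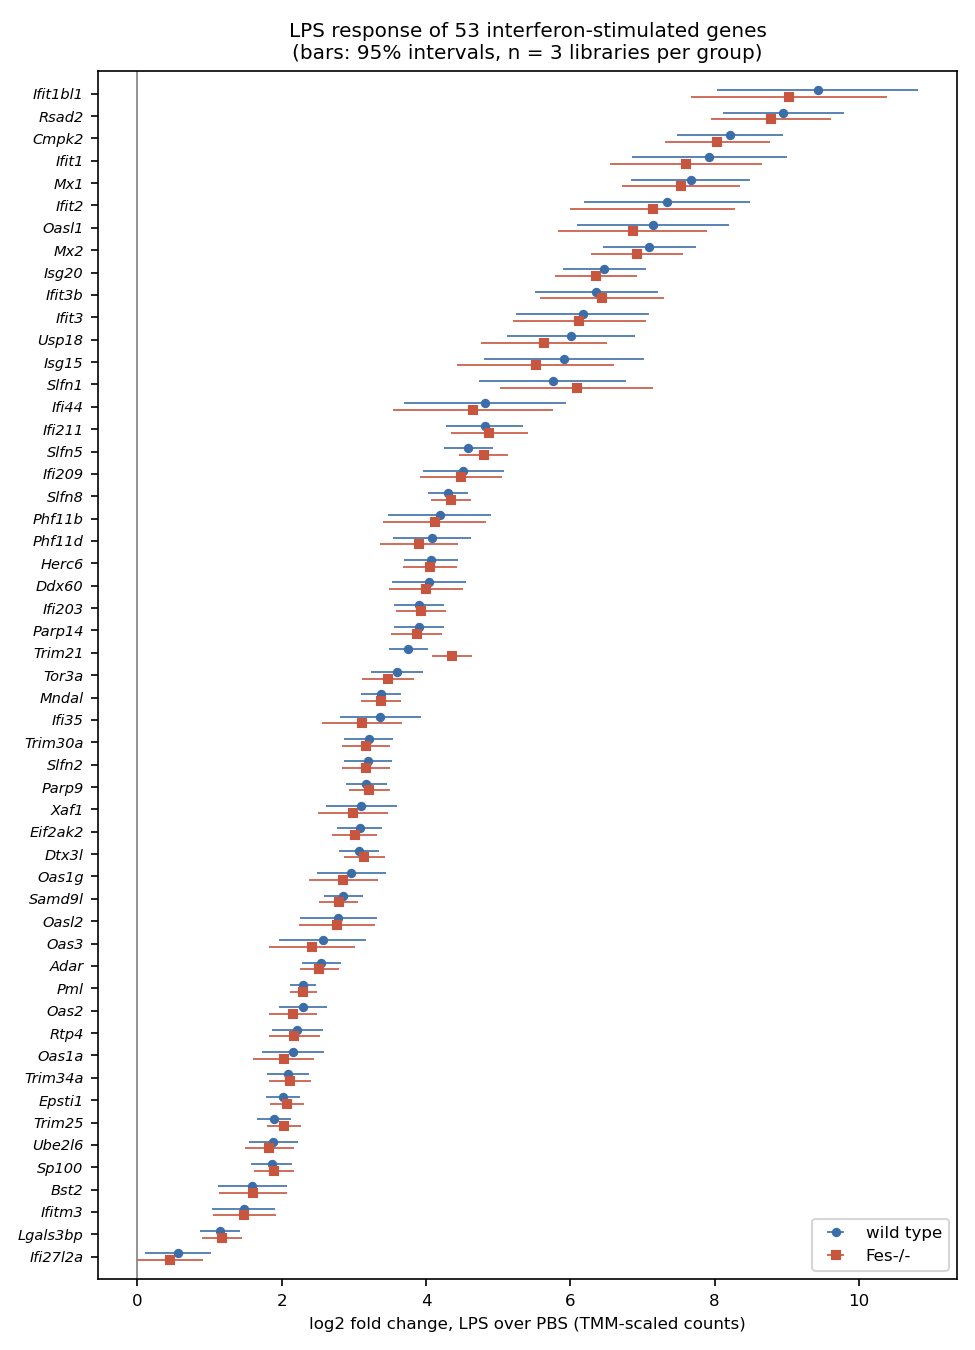
Fitted log2 fold change of LPS over PBS for each of the 53 genes (vertical axis, ordered by the wild-type value), in wild type (blue circles) and Fes-/- (red squares), with 95% intervals from 3 libraries per group. Values run from 0.56 for Ifi27l2a, which turns negative without TMM factors, to 9.43 for Ifit1bl1, and the markers of the genotypes lie close together for every gene except Trim21.

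The ISG15 conjugation genes all rose in both genotypes, by 3.70-fold to 64.5-fold in wild type. ISG15 is a ubiquitin-like protein that is attached to newly made proteins, and HERC6 is the main ligase for it in the mouse. Isg15 (GRCm38 chr4:156199424-156200818, minus strand) stood at 17.7, 10.3 and 24.9 CPM under PBS and 1049, 1084 and 1059.7 CPM under LPS in wild type. In Fes-/- the values were 29.5, 25.0 and 8.69 CPM under PBS and 1031, 949 and 926 CPM under LPS. The fitted rise was 60.4-fold in wild type and 46.0-fold in Fes-/-, and the PBS values differed among themselves far more than the LPS values. Herc6 read 23.8, 23.0 and 28.2 CPM under PBS and 397, 438 and 419.8 CPM under LPS in wild type, and 31.2, 25.1 and 17.4 CPM under PBS and 407, 412 and 405 CPM under LPS in Fes-/-. It rose 16.7-fold in wild type and 16.6-fold in Fes-/-. TRIM25, a ubiquitin ligase that also acts on the RNA sensor RIG-I, read 209, 285 and 245 CPM under PBS and 886, 961 and 902 CPM under LPS in wild type and 248, 212 and 205 CPM under PBS and 897, 908 and 907 CPM under LPS in Fes-/-. Its rise was 3.72-fold in wild type and 4.08-fold in Fes-/-. Usp18, whose product removes ISG15 and blocks IFNAR signalling, rose 64.5-fold in wild type and 49.6-fold in Fes-/-, and Ube2l6, the conjugating enzyme, 3.70-fold in wild type and 3.55-fold in Fes-/-.

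The IFIT genes, whose products bind viral RNA and hold back its translation, rose 72.2-fold to 689-fold in wild type and 69.9-fold to 523-fold in Fes-/-. All 5 lie within 99.3 kb on chromosome 19. Ifit1 stood at 22.3, 18.7 and 33.4 CPM under PBS and 5795, 6597 and 5761 CPM under LPS in wild type. Its Fes-/- values were 37.9, 34.3 and 11.6 CPM under PBS and 5396, 5176 and 5712 CPM under LPS. The rise was 244-fold in wild type and 194-fold in Fes-/-, and Fes-/- LPS values lay just under all wild-type LPS values, a gap of -0.16 ± 0.35 on the log2 scale that did not pass the test. Ifit2 stood at 50.0, 43.5 and 85.4 CPM under PBS and 9120.2, 9925 and 9851 CPM under LPS in wild type, and 102, 72.2 and 27.1 CPM under PBS and 9754, 9912 and 8702 CPM under LPS in Fes-/-. Ifit3b, a duplicate of Ifit3, read 6.16, 5.56 and 9.38 CPM under PBS and 662, 504 and 564 CPM under LPS in wild type and 9.12, 7.78 and 3.30 CPM under PBS and 636, 610.0 and 510.4 CPM under LPS in Fes-/-. Ifit1bl1, an IFIT gene at 3.21 TPM in wild type at rest, read 0.822, 1.27 and 2.61 CPM under PBS and 991, 976 and 1247 CPM under LPS in wild type. Its Fes-/- values were 3.34, 2.79 and 0.855 CPM under PBS and 1414, 1359 and 892 CPM under LPS. The size of its 689-fold rise is imprecise (log2 9.43 ± 0.62), and its PBS libraries held 73 to 288 counts with an SD of log2 CPM of 0.83 in wild type and 1.05 in Fes-/-. Transcripts of Ifit3 and Ifit3b match at 97.8% over 1700 bases, so reads could be shared between them, and their separate values are uncertain.

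The Mx genes encode dynamin-like GTPases that trap viral ribonucleoproteins, and the common inbred mouse strains carry defective copies. Mx1 rose 204-fold in wild type and 186-fold in Fes-/-, from 24.9, 21.2 and 35.5 to 5259, 5793 and 5574 CPM in wild type. In Fes-/- it went from 40.3, 35.1 and 15.6 to 5741, 5798 and 5339 CPM. Mx2, annotated as a polymorphic pseudogene, read 5.96, 5.74 and 8.50 CPM under PBS and 888, 962 and 913 CPM under LPS in wild type and 8.36, 9.57 and 4.29 CPM under PBS and 921, 897 and 881 CPM under LPS in Fes-/-, a rise of 137-fold in wild type and 121-fold in Fes-/-. The pair shares 843 bases at 95.3% identity, which leaves the division of reads between them uncertain.

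All 8 genes of enzymes that act on or are switched on by double-stranded RNA, and of their relatives, rose, by 4.45-fold to 142-fold in wild type. The OAS enzymes make the short oligoadenylates that activate RNase L. Among the 8 genes the rise was largest for Oasl1 (142-fold in wild type and 117-fold in Fes-/-), a relative of the OAS genes whose product in the mouse holds back IRF7 translation. It was smallest for Oas1a (4.45-fold in wild type and 4.07-fold in Fes-/-), which went from 81.3, 66.2 and 103 to 356, 379 and 379 CPM in wild type. Eif2ak2 encodes PKR, the kinase that stops translation when double-stranded RNA appears, and read 90.6, 79.9 and 87.9 CPM under PBS and 686, 776 and 727 CPM under LPS in wild type. It read 105, 103 and 67.2 CPM under PBS and 718, 784 and 719 CPM under LPS in Fes-/-, and rose 8.47-fold in wild type and 8.06-fold in Fes-/-. Adar, the RNA-editing enzyme that keeps self RNA from triggering these sensors, read 121, 111 and 130 CPM under PBS and 681, 727 and 712 CPM under LPS in wild type and 148, 138 and 96.9 CPM under PBS and 732, 735 and 729 CPM under LPS in Fes-/-. Its 3 Fes-/- LPS values lay above all 3 wild-type LPS values, by a fitted 0.05 ± 0.12. Oas1a and Oas1g match at 97.6% over 1861 bases and are uncertain as separate genes.

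Genes that deplete or damage nucleotides and RNA rose 88.8-fold to 496-fold in wild type. Rsad2 encodes viperin, which turns CTP into a chain-terminating nucleotide, and on the length-scaled scale it was the most abundant effector under LPS, with 12936 ± 533 TPM in wild type and 12813 TPM in Fes-/- (mean, n = 3). At rest it averaged 50.1 and 58.0 TPM. Cmpk2, a mitochondrial nucleotide kinase gene that lies 12.8 kb from Rsad2 on the opposite strand of chromosome 12, rose with it: 27.9, 24.8 and 40.3 CPM under PBS and 9254, 9301 and 9015 CPM under LPS in wild type. The Fes-/- values were 42.4, 39.1 and 19.1 CPM under PBS and 8696, 9112 and 8668 CPM under LPS, and the rise was 296-fold in wild type and 263-fold in Fes-/-, against 496-fold in wild type and 439.6-fold in Fes-/- for Rsad2. Isg20, an exonuclease gene on chromosome 7, read 2.49, 1.83 and 3.08 CPM under PBS and 221, 204 and 232 CPM under LPS in wild type and 3.05, 3.21 and 1.56 CPM under PBS and 238, 210.2 and 196 CPM under LPS in Fes-/-, a rise of 88.8-fold in wild type and 82.1-fold in Fes-/-.

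The membrane and secreted effectors had the lowest median rise of the classes, with folds between 1.47-fold and 4.65-fold in wild type, and were abundant before LPS. Mean levels in wild type under PBS were 2888 TPM for Ifitm3, which stops virus fusion in endosomes, 2166 TPM for Ifi27l2a, 1214 TPM for Lgals3bp and 675 TPM for Bst2, the tetherin that holds budding virus. Rtp4 read 113, 99.6 and 139 CPM under PBS and 556, 539 and 542 CPM under LPS in wild type and 137, 134 and 84.7 CPM under PBS and 545, 532 and 533 CPM under LPS in Fes-/-. It rose 4.65-fold in wild type and 4.52-fold in Fes-/-. Lgals3bp, a secreted glycoprotein gene, read 729, 671 and 835 CPM under PBS and 1636, 1550.3 and 1756 CPM under LPS in wild type, and 811, 754 and 567 CPM under PBS and 1773, 1586 and 1438 CPM under LPS in Fes-/-. Its rise of 2.21-fold in wild type and 2.25-fold in Fes-/- did not pass the test when libraries were scaled by their totals (log2 0.23 in each genotype, adjusted p = 0.118 and 0.113) or on log2(TPM + 1).

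Ifi27l2a stood apart from the other 52. It read 184, 185 and 275 CPM under PBS and 265, 334 and 350.0 CPM under LPS in wild type, with LPS replicate 1 below PBS replicate 3. In Fes-/- the values were 251, 182 and 165 CPM under PBS and 339, 252 and 229 CPM under LPS, where LPS replicate 3 lay below PBS replicate 1. The fitted change was 0.56 ± 0.21 in wild type (adjusted p = 0.0303) and 0.46 ± 0.21 in Fes-/- (adjusted p = 0.0678), and the wild-type call was lost on leaving out wild-type PBS replicate 1 or 2 or LPS replicate 2 or 3 (adjusted p = 0.0889 to 0.117). Between libraries of the same number it was higher under LPS in 3 of 3 in each genotype. With a replicate block the edgeR adjusted p was 4.12e-05 in wild type and 3e-04 in Fes-/-, so the block changed the Fes-/- call, as did DESeq2 (adjusted p = 0.0207). Scaled by library totals it was -0.36 (adjusted p = 0.132) and -0.48 (adjusted p = 0.0514), and its mean TPM went down from 2166 to 1661 in wild type and from 2089 to 1448 in Fes-/-. Its direction under LPS therefore depends on how the libraries are scaled.

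The ADP-ribosylation genes rose 8.43-fold to 14.9-fold in wild type and 8.86-fold to 14.6-fold in Fes-/-. PARP9 and DTX3L form a ligase pair, and their genes overlap head to head by 681 bases on chromosome 16, so without strand information reads in the overlap cannot be assigned. Parp9 read 82.9, 81.8 and 101 CPM under PBS and 777, 809 and 807 CPM under LPS in wild type and 103, 90.1 and 68.7 CPM under PBS and 827, 816 and 784 CPM under LPS in Fes-/-. Dtx3l rose 8.43-fold in wild type and 8.86-fold in Fes-/-, against 9.01-fold in wild type and 9.27-fold in Fes-/- for Parp9. Parp14, a mono-ADP-ribosyltransferase gene, read 231, 254 and 289 CPM under PBS and 3699, 4049.8 and 3795 CPM under LPS in wild type. It read 328, 288 and 199 CPM under PBS and 3861, 4067 and 3983 CPM under LPS in Fes-/-, a rise of 14.9-fold in wild type and 14.6-fold in Fes-/-.

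All 5 TRIM and nuclear body genes rose. PML builds the nuclear bodies in which incoming viral genomes are silenced, and Pml had the smallest SD of the 53 over the 6 PBS libraries together: 106, 124 and 118 CPM under PBS and 544, 597 and 571 CPM under LPS in wild type. It read 123, 116 and 105 CPM under PBS and 577, 562 and 552 CPM under LPS in Fes-/-, and the rise was 4.92-fold in wild type and 4.93-fold in Fes-/-. Sp100, another nuclear body component, rose 3.63-fold in wild type and 3.72-fold in Fes-/-. Trim30a rose 9.21-fold in wild type and 8.99-fold in Fes-/-, Trim34a 4.25-fold in wild type and 4.34-fold in Fes-/-, and Trim21, a cytosolic antibody receptor gene described below, 13.5-fold in wild type and 20.5-fold in Fes-/-.

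The Schlafen genes, a family named for its effects on cell growth, rose 9.20-fold to 54.0-fold in wild type. Slfn8 read 62.7, 65.1 and 65.4 CPM under PBS and 1218, 1397 and 1216 CPM under LPS in wild type. It read 71.7, 59.5 and 49.1 CPM under PBS and 1198, 1219 and 1254 CPM under LPS in Fes-/-, with a rise of 19.8-fold in wild type and 20.4-fold in Fes-/-, but shares 725 bases at 96.7% identity with Slfn9. Slfn5 read 155, 155 and 148 CPM under PBS and 3342, 3919.7 and 3737 CPM under LPS in wild type, and 161, 142 and 99.3 CPM under PBS and 3713, 3919.5 and 3536 CPM under LPS in Fes-/-, a rise of 24.0-fold in wild type and 27.8-fold in Fes-/-. Slfn1, at 3.71 TPM in wild type at rest, is described with the basal spread. The PYHIN genes, relatives of the DNA sensor AIM2, rose 10.4-fold to 28.1-fold in wild type. Ifi203 read 135, 167 and 165 CPM under PBS and 2188, 2549 and 2248 CPM under LPS in wild type and 178, 158 and 109 CPM under PBS and 2192, 2225 and 2377 CPM under LPS in Fes-/-. Mndal read 127, 145 and 152 CPM under PBS and 1402, 1602 and 1397 CPM under LPS in wild type and 148, 138 and 104 CPM under PBS and 1344, 1352 and 1366 CPM under LPS in Fes-/-. The annotated span of Mndal covers Ifi203 and Ifi211 almost whole. Mndal matches Ifi203 at 96.1% and Ifi211 at 95.4%. Mndal and Ifi211 also match Ifi204 and Ifi205, which are outside the set. The separate values of Ifi203, Ifi211 and Mndal are therefore uncertain.

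Phf11d and Phf11b, neighbours on chromosome 14 that both share sequence with Phf11a, rose 16.9-fold in wild type and 15.0-fold in Fes-/- and 18.2-fold in wild type and 17.4-fold in Fes-/-. Phf11d read 20.9, 16.6 and 26.3 CPM under PBS and 351, 386 and 344 CPM under LPS in wild type and 30.8, 25.3 and 14.9 CPM under PBS and 367, 343 and 354 CPM under LPS in Fes-/-. Phf11b read 18.5, 14.8 and 27.8 CPM under PBS and 361, 370.3 and 384 CPM under LPS in wild type and 29.6, 23.5 and 12.6 CPM under PBS and 404, 404 and 336 CPM under LPS in Fes-/-. The remaining 7 induced genes rose 4.05-fold to 28.3-fold in wild type. Samd9l, a translation-stopping factor, read 154, 144 and 157 CPM under PBS and 1036, 1168 and 1083 CPM under LPS in wild type and 181, 166 and 122 CPM under PBS and 1056, 1072 and 1121 CPM under LPS in Fes-/-. Tor3a, an endoplasmic reticulum ATPase gene, stood at the middle of the 53: 58.7, 51.4 and 74.8 CPM under PBS and 725, 779 and 730.4 CPM under LPS in wild type and 77.6, 73.8 and 49.8 CPM under PBS and 738, 743 and 757 CPM under LPS in Fes-/-. The other 5 were Ifi35, Ifi44, Xaf1, Ddx60 and Epsti1, of which Ifi44 rose most (28.3-fold in wild type and 25.2-fold in Fes-/-) and Epsti1 least (4.05-fold in wild type and 4.22-fold in Fes-/-).

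Upstream of the effectors, a list of 35 genes from TLR4 to the STAT factors was read in the same fit, and 28 were tested. In each genotype 22 of the 28 rose and 4 fell. Those that fell were Ifngr1, Tlr4 (log2 -0.40 in wild type and -0.38 in Fes-/-), Ticam2 (-1.37 and -0.77) and Irf3 (-0.72 and -0.79). Ifnb1, the ligand, had 0, 0 and 0 counts in wild-type PBS libraries and 525, 282 and 434 under LPS. In Fes-/- it had 1, 1 and 0 counts under PBS and 932, 1249 and 398 under LPS. It was the only interferon gene of 8 listed to pass the filter, and the others had at most 4 counts in any library. All 6 transcription factors on the list rose in both genotypes, as did 6 of 7 receptors and kinases, Ifngr1 being the exception that fell. Stat2, a subunit of the ISRE-binding complex, read 141, 134 and 170.0 CPM under PBS and 879.8, 1024 and 865 CPM under LPS in wild type and 182, 166 and 102 CPM under PBS and 809, 758 and 872 CPM under LPS in Fes-/-. Irf9, the DNA-binding subunit, changed less: 74.3, 72.0 and 83.9 CPM under PBS and 196, 192 and 190.4 CPM under LPS in wild type and 82.6, 76.6 and 64.8 CPM under PBS and 191, 193 and 185 CPM under LPS in Fes-/-. Irf7, itself an interferon-induced factor that amplifies the response, read 276, 178 and 389 CPM under PBS and 1666, 1719.8 and 1830.2 CPM under LPS in wild type. It read 407, 267 and 117 CPM under PBS and 1880.2, 1754 and 1519 CPM under LPS in Fes-/-, where PBS replicate 3 was the lowest of all 6 PBS libraries, as it was for Stat2 and Irf9. No gene of the 28 passed the test between genotypes or for a genotype difference in the LPS effect, with edgeR or DESeq2. Before adjustment, edgeR gave a p under 0.05 for 1 gene under PBS (Traf3), 2 under LPS (Ifnar2 and Irf8) and 3 for the LPS effect (Ifnar1, Irf8 and Ticam2), and DESeq2 gave 2, 3 and 3.

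The second comparison asked whether loss of Fes changed the effectors. Under PBS none of the 53 differed between genotypes (edgeR, adjusted p of 0.162 or more), where 0.0506% of all tested genes were higher and 0.0316% lower in Fes-/-. At an unadjusted p under 0.05 there was 1, Trim21, and DESeq2 called the same gene alone. The median difference was 0.02 on the log2 scale, and 46 of the 53 had a 95% interval within 2-fold in either direction. The others were Usp18, Oasl1, Ifit2, Isg15 (-0.66 to 1.17), Ifi44 (-0.91 to 1.09), Ifit1bl1 (-0.57 to 1.74) and Slfn1 (-1.81 to 0.39), whose intervals include 0 and a 2-fold difference alike. Under LPS none differed (adjusted p of 0.902 or more, and 0 at an unadjusted p under 0.05; DESeq2 called 0), where 0.0696% of tested genes were higher and 0.038% lower. The median was -0.03, and 49 of 53 intervals lay within 2-fold. Non-overlapping libraries were seen under LPS for Adar (higher; 5.78% of all genes) and for Isg15, Ifit1, Oas1g and Mndal (lower; 5.63%), and under PBS for Trim21 alone (lower; 3.8%), with 0 higher (3.03%).

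The smallest p-values under LPS belonged to Slfn1 (-0.38 ± 0.35, adjusted p = 0.902), Ifi27l2a (-0.21 ± 0.21, adjusted p = 0.902) and Mndal (-0.12 ± 0.12, adjusted p = 0.904). The LPS effect itself differed between genotypes for none of the 53 (edgeR interaction, 0 called and 1 at an unadjusted p under 0.05; DESeq2 called 0; 0.00633% of tested genes had a larger and 0.0127% a smaller effect in Fes-/-). The effects fitted in the separate libraries of the genotypes ordered the genes almost alike, with Pearson's r of 0.9973 and Spearman's rho of 0.9943 over 53 genes, as a description, since the effects share 1 scaling and dispersion estimate. For 52 genes the effects lay within 0.5 of each other on the log2 scale, with a median gap of 0.07.

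Trim21 was the gene outside that limit. TRIM21 binds antibody-coated virus in the cytosol and sends it to the proteasome. It read 47.4, 39.4 and 47.2 CPM under PBS and 583, 582 and 641 CPM under LPS in wild type. In Fes-/- it read 34.3, 30.7 and 25.7 CPM under PBS and 657, 658 and 542 CPM under LPS, so that every Fes-/- PBS library lay below every wild-type PBS library while the LPS libraries overlapped. The difference under PBS was -0.56 ± 0.11 (interval -0.81 to -0.32, edgeR adjusted p = 0.162), and it passed with DESeq2 (adjusted p = 0.00778) and without the filter on low counts (adjusted p = 8.02e-06). Under LPS it was 0.04 ± 0.11. The rise was 13.5-fold in wild type and 20.5-fold in Fes-/-, a difference of 0.60 ± 0.16 between the LPS effects (edgeR adjusted p = 1). Trim21 lies at GRCm38 chr7:102557921-102565486, 22.17 Mb from Fes on the same chromosome. A processed pseudogene on chromosome 6, Gm44075, matches its transcripts at 97.7% over 215 bases. Gm44075 had 0 counts in all 6 wild-type libraries, 122, 199 and 133 in Fes-/- PBS and 2139, 1569 and 1134 in Fes-/- LPS libraries. The share of reads passing between the pair was not tested.

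**Figure D2:**
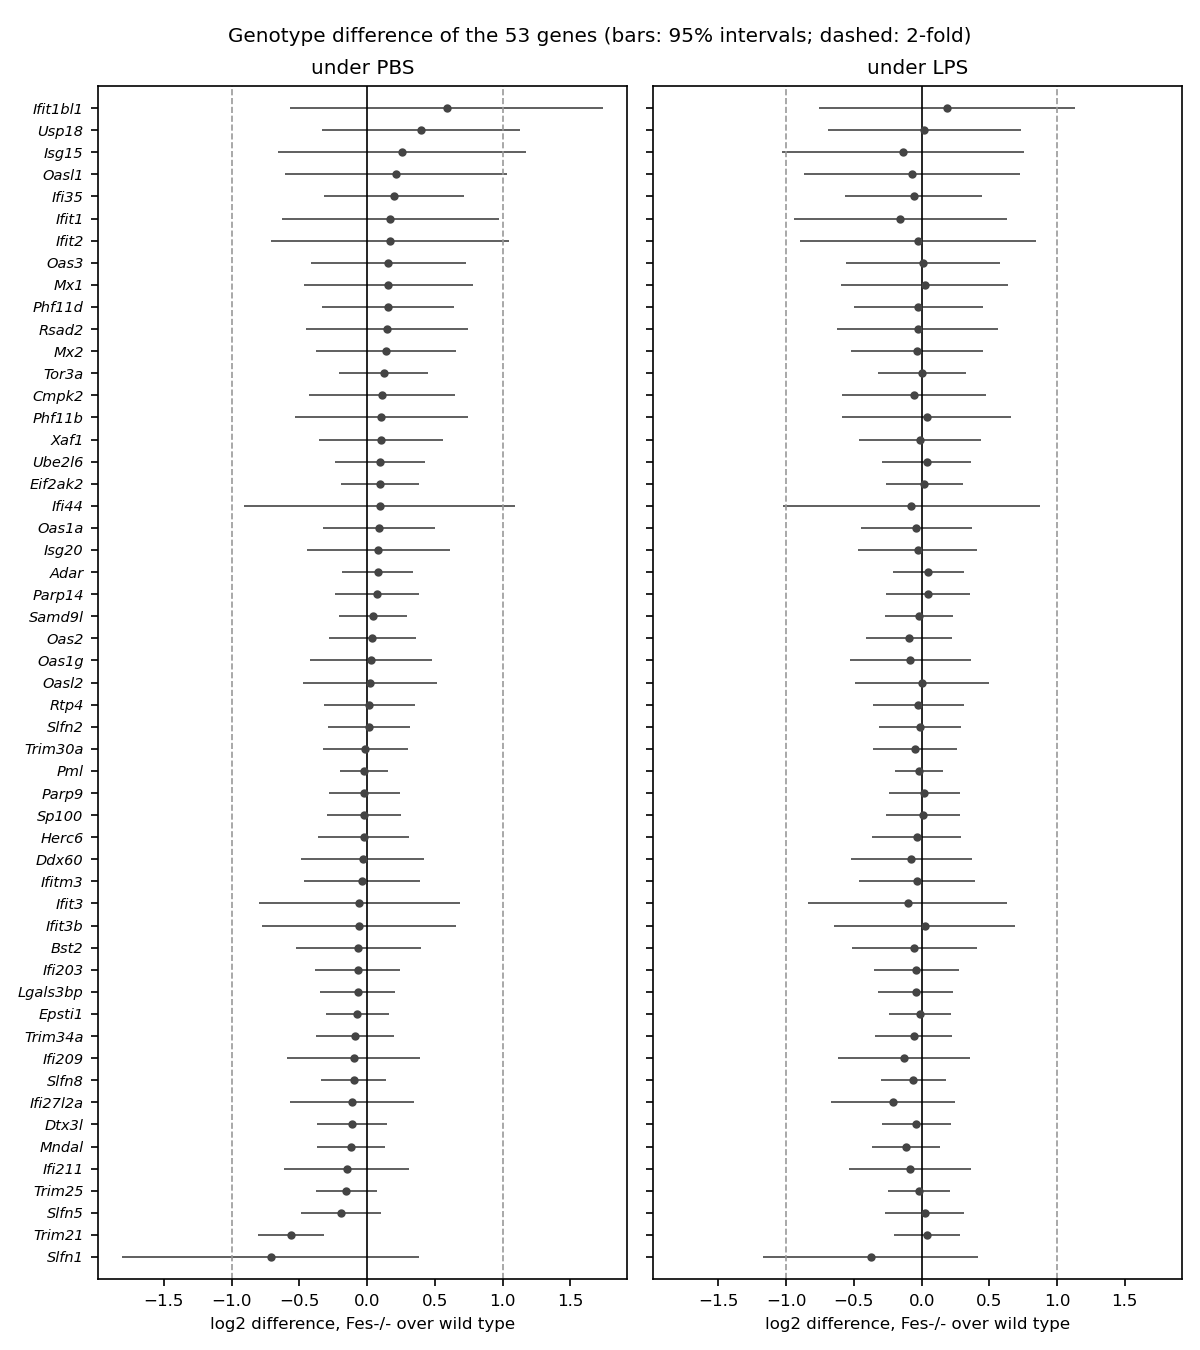
Fitted log2 difference, Fes-/- over wild type, for each of the 53 genes under PBS (left) and LPS (right), with 95% intervals from 3 libraries per group and dashed lines at a 2-fold difference. Most points lie close to 0 in both panels, and only the interval of Trim21 under PBS leaves 0 out, at -0.56, although its adjusted p of 0.162 does not pass.

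The remaining question was how far the effectors varied between libraries of 1 group, given as a description with no test. Under PBS the genotype difference, fitted between groups of 3 libraries, had a median size of 0.10 on the log2 scale. The same median over all tested genes was 0.10. The spread between libraries is another measure. The median SD of log2 CPM over the 3 PBS libraries was 0.28 for the 53 genes in wild type and 0.42 in Fes-/-, against 0.17 and 0.14 for all tested genes. It was 0.16 and 0.13 for the 5060 other genes that LPS raised in both genotypes. In the Fes-/- PBS group 52 of the 53 lay above the median SD of all genes, and in the wild-type PBS group 37 did. Under LPS the order turned: the median SD was 0.07 in wild type and 0.06 in Fes-/-, against 0.16 and 0.14 for all genes. The 5060 other LPS-raised genes were also below all genes there, with 0.11 in wild type and 0.09 in Fes-/-. None of these sets was matched for expression level, which rose for the effectors under LPS. The part of level in the SDs was not tested.

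Many effectors stood on the same side of the mean within a PBS library. Measured from the mean of the 6 PBS libraries, the median effector stood at -0.04, -0.22 and 0.27 (log2) in wild-type replicates 1, 2 and 3, and at 0.31, 0.19 and -0.51 in Fes-/- replicates 1, 2 and 3. In Fes-/- PBS replicate 3 all 53 were below the mean, and 49 had their lowest value of the 6 libraries there, against 12.1% of all tested genes. The others were Ube2l6, Bst2 and Ifi35, lowest in wild-type PBS replicate 2, and Ifit1bl1, lowest in wild-type PBS replicate 1. Fes-/- PBS replicate 1 held the highest value for 34 of the 53 (12.2% of all genes). All 53 were higher in Fes-/- PBS replicate 1 than in replicate 3, by a median of 1.72-fold and 1.17-fold to 6.52-fold, and 49 were higher in wild-type PBS replicate 3 than in replicate 2, by a median of 1.45-fold. The 5060 other LPS-raised genes moved little by the same measure, with medians between -0.06 and 0.04 in the 6 libraries, and the 1157 of them raised at least 8-fold in wild type lay between -0.11 and 0.12. In the LPS libraries the effectors' medians were all within -0.06 and 0.05. The lowest was again Fes-/- replicate 3, where 46 of the 53 were below the mean of the 6 LPS libraries and 27 had their lowest value, against 14.6% of all tested genes.

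**Figure D3:**
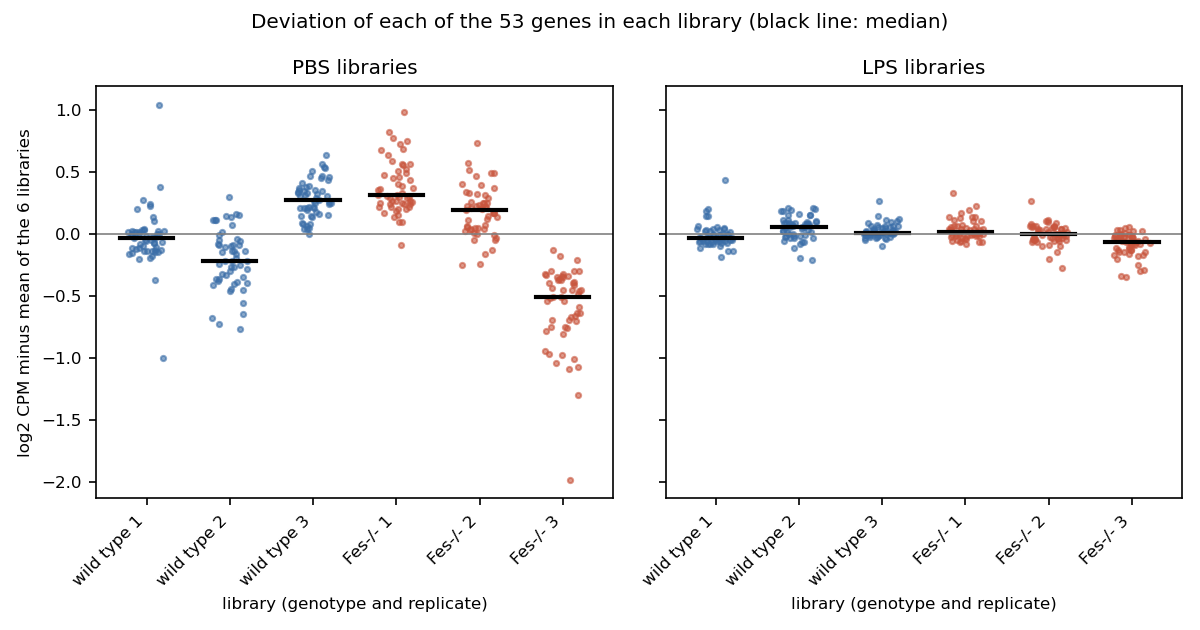
Deviation of log2 CPM from the mean of the 6 PBS libraries (left) or the 6 LPS libraries (right), 1 point per gene for the 53 genes in each library, with the median as a black line. Under PBS every point of Fes-/- replicate 3 is below 0 (median -0.51), and the points of Fes-/- replicate 1 and wild-type replicate 3 lie mostly above 0, while under LPS the medians stay between -0.06 and 0.05.

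The spread was largest for Slfn1, Ifit1bl1, Ifi44, Isg15 and Ifit2 and smallest for Pml, Epsti1, Slfn8, Trim25 and Samd9l, with SDs over the 6 PBS libraries from 0.10 (Pml) to 1.07 (Slfn1). Slfn1 read 2.10, 1.13 and 1.25 CPM under PBS and 95.8, 82.2 and 66.4 CPM under LPS in wild type. In Fes-/- it read 1.68, 0.846 and 0.234 CPM under PBS and 67.7, 58.8 and 61.6 CPM under LPS, with 20 counts in PBS replicate 3 and 98 to 217 in the wild-type PBS libraries. It rose 54.0-fold in wild type and 68.1-fold in Fes-/-, and its PBS difference between genotypes was -0.71 ± 0.49 (adjusted p = 0.975). Ifi44, whose product curbs virus growth, read 9.15, 5.30 and 10.8 CPM under PBS and 255, 214 and 246 CPM under LPS in wild type and 13.4, 10.3 and 3.17 CPM under PBS and 259.7, 232 and 188 CPM under LPS in Fes-/-. For Isg15, Ifit2 and Ifi44 alike, wild-type PBS replicate 2 was the lowest of its group and Fes-/- PBS replicate 3 the lowest of all. Trim25, among the least variable, read highest in wild-type PBS replicate 2.

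**Figure D4:**
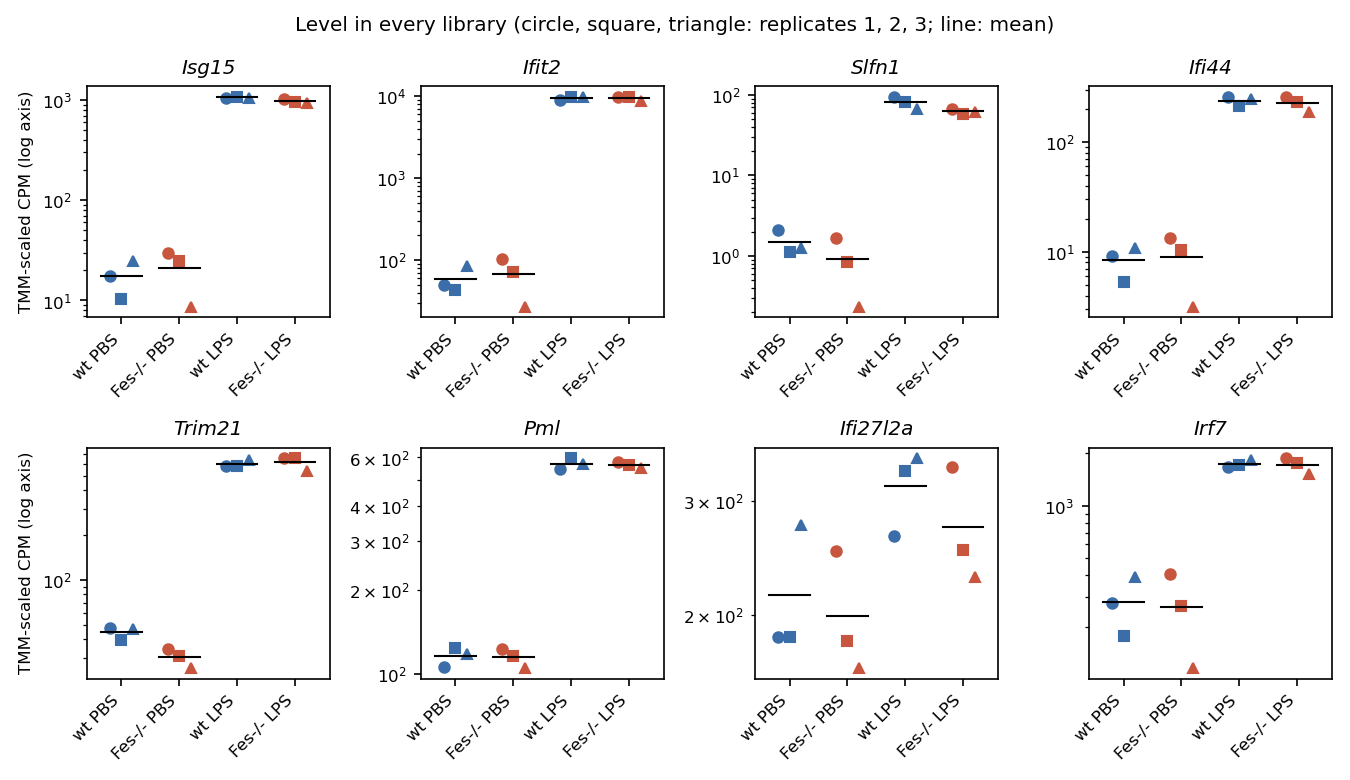
TMM-scaled CPM on log axes for Isg15, Ifit2, Slfn1, Ifi44, Trim21, Pml, Ifi27l2a and Irf7 in every library (wild type blue, Fes-/- red; circle, square and triangle for replicates 1, 2 and 3; line for the group mean). Fes-/- PBS replicate 3 is the lowest PBS point in each panel, Trim21 separates the genotypes under PBS, and the PBS and LPS points overlap for Ifi27l2a, whose direction turns without TMM factors, and for none of the other 7.

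Fes-/- PBS replicate 3 did not stand apart in depth or mitochondrial share. It held 62026557 counts (61682213 to 76617456 in the other PBS libraries), and 2.03% of them were mitochondrial (1.55 to 2.35%). The summed macrophage markers, mostly Lyz2, were highest in each genotype in the library where the effectors were lowest: 34660, 39320 and 32200 TPM in wild-type PBS replicates 1, 2 and 3 and 29890, 28750 and 37390 TPM in Fes-/-. The plasmacytoid dendritic sum was 23.5, 31.1 and 25.6 TPM in wild type and 24.7, 27.0 and 22.9 TPM in Fes-/-, most of it Tcf4. The part of these in the spread was not tested, and in bulk RNA fewer cells with basal expression and less RNA per cell cannot be told apart.

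Leaving out single libraries shows how far the basal values rest on them. Without Fes-/- PBS replicate 3 the median SD of the effectors over the remaining pair was 0.13, against 0.0985 for all genes over the same pair. Without replicate 1 it was 0.45 (0.14 for all genes) and without replicate 2 it was 0.55 (0.11). In wild type it was 0.16 without PBS replicate 3 (0.16 for all genes), 0.22 without replicate 2 (0.11) and 0.38 without replicate 1 (0.15). The median genotype difference under PBS turned with the library left out, from -0.16 without Fes-/- PBS replicate 1 to 0.24 without Fes-/- PBS replicate 3. In the latter edgeR fit 20 of the 53 had an unadjusted p under 0.05 and 0 passed the adjusted threshold (smallest adjusted p = 0.289). In the former 6 had an unadjusted p under 0.05 and 0 passed (smallest adjusted p = 0.0901). The shares of all tested genes in these fits are not given here. The latter fit left out the library where 49 effectors had their lowest PBS value. Under LPS the median stayed between -0.05 and -0.003.

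The 53 genes lie on 15 chromosomes in GENCODE M21 (GRCm38), with 8 on chromosome 11, 6 each on chromosomes 1, 5 and 16, 5 on chromosome 19 and 5 on chromosome 7, which carries Fes. The chromosome 7 genes are Isg20, 1.46 Mb from Fes, and Trim21, Trim34a, Trim30a and Ifitm3. Matches of at least 95% identity over 200 bases were counted, to a gene whose own total was at least 1% the size of the member's. Such a match was found for 18 of the 53. They were Ifi203, Ifi209, Ifi211, Ifit3, Ifit3b, Mndal, Mx1, Mx2, Oas1a, Oas1g, Phf11b, Phf11d, Samd9l, Slfn2, Slfn5, Slfn8, Trim21 and Trim30a. Slfn5 matched only Pde4dip, Fry, Tapbpl and Zfas1, which are not Schlafen genes, over 200 to 210 bases. The own total of each of these genes was 1.14 to 2.71% the size of the Slfn5 total. The labels do not say how the authors' counting shared reads between such matches, so the separate levels of the 18 genes are uncertain, by an amount that was not tested.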

How the data were processed

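Poly-A-enriched RNA of 12 libraries was analysed from raw counts per Ensembl gene and from TPM values, both as deposited by the authors, with 1 column per library and 61016254 to 101027166 counts each. The submitters' processing notes name DESeq2 1.34.0, STAR 2.7.8a, R 4.1.12 and Picard 2.9.0, and list GRCm38 and mm9 without roles. The program that counted reads was not given in the sources used here. Lengths implied by counts and TPM were within 1% of GENCODE M21 exon lengths for 9353 of 9487 genes (98.59%), so positions were taken from that annotation on GRCm38.

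Counts were fitted with edgeR 4.0.16 in R 4.3.3 (filterByExpr over the 4 groups, TMM, 1 mean per group, robust quasi-likelihood F tests, 8 residual degrees of freedom). Two-sided p-values were adjusted by Benjamini-Hochberg over 15801 genes and called under 0.05. Errors beside log2 changes are standard errors, errors beside TPM are SDs and intervals are 95%. Per-library log2 CPM used a prior count of 2. Alternatives were DESeq2 1.42.0, RLE factors, no filter, the 6 libraries of a comparison alone, a replicate block, limma 3.58.1 trend on log2(TPM + 1) and log2(TPM + 0.1), each library left out, and library totals without factors, the last chosen after seeing the data. In a simulation of LPS against PBS in wild type over 15494 genes, 32, 44, 44 and 47 of 50 genes changed by log2 1, 1.5, 2 and 3 were recovered, and 14 of 181 calls (7.73%) were false, above the nominal rate. It changed 200 genes, up or down at random, and left the others flat. It therefore does not cover a response as wide as that to LPS or the shift in TMM factors between PBS and LPS libraries. Deviations of same-numbered PBS and LPS libraries correlated at 0.14, 0.17 and 0.14 in wild type and at 0.07, 0.09 and 0.19 in Fes-/-. The main fit paired no libraries in either genotype. For the LPS effects and their interaction, the replicate block joined same-numbered PBS and LPS libraries within each genotype. For the genotype comparisons it joined all libraries of the same number. Near copies were found with BLAST 2.17.0, and figures drawn with matplotlib 3.10.9.

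The 53 genes and the pathway and marker lists were chosen with earlier results of these data known. Named with every library are, per role, the 2 genes with the smallest p for LPS in wild type, the 5 with the highest basal SD, the 3 with the smallest p between genotypes under PBS and LPS, genes not called by LPS in some genotype, and Ifnb1, Stat2, Irf9 and Irf7. Other genes were named after their values were seen. 1 further gene of the pathway list that the rule names is not reported here.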

Additional observations from a re-analysis of the deposited data

How the results depend on the processing

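Of 1848 values recomputed for 96 results over 22 settings, 1807 kept their direction and their side of the threshold or moved by less than the spread. The rises of the effectors under LPS were called for 51 to 53 genes in either genotype under all settings run. Under both TPM settings 1 effector, Ifi27l2a, was called lower in Fes-/- (0 otherwise): its change there was -0.52 (adjusted p = 0.0369 with log2(TPM + 1), 0.0351 with log2(TPM + 0.1)) and in wild type -0.37 in each, against -0.36 in wild type and -0.48 in Fes-/- with library totals. Without the filter on low counts 1 effector had a larger LPS effect in Fes-/- (Trim21), 2 were higher and 2 lower in Fes-/- under PBS, and DESeq2 called 1 lower there (Trim21). The calls without the filter include Slfn1 (-0.72, adjusted p = 8.23e-05) and Ifit1bl1 (0.58, adjusted p = 0.00141), whose libraries overlap between genotypes, and that setting called 315 genes in all between genotypes under PBS, against 13; the cause was not tested. The PBS genotype difference of Ifi44 was -0.029 on log2(TPM + 0.1) and ran from -0.33 to 0.50 with a library left out, that of Isg15 from -0.082 to 0.63 and that of Ifit2 from -0.28 to 0.55. In each genotype every PBS library correlated best in its deviations with the LPS library of its own number, a hint from the data and not the design. With a replicate block 53 effectors were called higher in each genotype, and 0 between genotypes or in the interaction. The block added Ifi27l2a in Fes-/- and changed no other call of an effector. Between genotypes it joined libraries of the same number, although the labels do not link wild-type and Fes-/- libraries. Deviations of same-numbered wild-type and Fes-/- libraries correlated at 0.02, -0.16 and -0.14 under PBS and at -0.04, -0.13 and -0.15 under LPS. The basal values of Slfn1 and Ifit1bl1 rest on 20 to 288 counts a library, and the part of depth in their spread was not tested.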
